A study of Mus musculus with 6 samples.

Results

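Renin-angiotensin system genes were followed by symbol in RNA sequencing of mouse renal cortex: Ren1, Atp6ap2, Agt, Ace, Enpep, Mme, Lnpep, Agtr1a and Mas1. All 9 were among the 19176 genes of the expression table. The 6 libraries came from wild-type male C57BL/6J mice aged 8 weeks, which underwent unilateral ischemia-reperfusion injury (UIRI) with a clamp of 35 min on the left renal pedicle and lost the right kidney on day 13. The UIRI group (3 libraries) received vehicle and the UIRI + BA group (3 libraries) received BA intraperitoneally at 1 mg/kg each day, and cortex was taken on day 14. BA is named brucine A in the library labels and bruceine A in the study's methods. These names can stand for different compounds, and the labels alone do not settle which was given. No sham kidney was analysed here, and the question is how injured kidneys with BA compare with those given vehicle. Reads assigned to genes numbered 18683621, 18684293 and 38124164 in UIRI against 16510720, 19725912 and 20313529 in UIRI + BA, for replicates 1, 2 and 3, the order used throughout. Values are normalised counts, that is, reads divided by a scaling factor for each library.

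In the circulating system, renin from juxtaglomerular cells cleaves angiotensinogen to angiotensin I, and angiotensin-converting enzyme then forms angiotensin II, which constricts vessels and promotes sodium retention through its type 1 receptor. Aminopeptidases and neprilysin shorten these peptides further, and some of the products act on other receptors such as Mas. The kidney makes most parts of the system itself, with several of the peptidases on the brush border of the proximal tubule.

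No member passed the test between the groups after adjustment over all genes. In limma's test on log2 of the normalised count plus 1, 0 of the 9 had an adjusted p below 0.05, against 0% of all genes. At an unadjusted p below 0.05 there was 1 member, Enpep, against 10.3% of all genes (5.67% higher with BA). The groups did not overlap in 2 members, Ace and Enpep, both higher with BA, against 14.4% of all genes (7.45% higher with BA). DESeq2 on the recovered reads also called 0 members, against 1.35% of the genes it gave an adjusted p, and edgeR called 0, against 0%; each had 1 member at an unadjusted p below 0.05, against 7.88% of genes with DESeq2 and 9.93% with edgeR. DESeq2 gave Mas1 no adjusted p and edgeR's filter removed it, so the adjusted counts of these tools cover 8 members. With BA the log2 fold change was above 0 in 6 members and below 0 in 3, against 48.9% of all genes above 0, with a median of 0.21 beside -0.0053 over all genes. In 4 of the 9 (Ren1, Agtr1a, Atp6ap2 and Mas1) the sign reversed in at least 1 fit without 1 library. In bulk tissue, fewer cells of a type and less RNA per cell cannot be told apart.

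UIRI replicate 3 had 2.04 times the median depth of the other 5 libraries and stood apart in several members. Without it, limma called 1 member, Enpep, at an adjusted p below 0.05, against 5.02% of all genes, and 3 members (Enpep, Lnpep and Mme) at an unadjusted p below 0.05, against 25.2%. Without UIRI + BA replicate 1 there were also 3 members at an unadjusted p below 0.05, but a different set (Enpep, Ace and Agt), against 6.62% of all genes, and 0 at an adjusted p below 0.05. Whether depth had a part in this was not tested.

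The bases just before the RefSeq start of transcription are shown for Ren1 and Agt, which shared their lowest and highest libraries, and for Ace and Enpep, the members whose groups did not overlap. Lnpep is set beside them as a member without the motif searched. RefSeq promoters (build GRCm38.p6) were matched by symbol for 8 of the 9 members, Agtr1a having no entry. These starts are not always those of the GENCODE spans given below: the windows of Ren1 and Lnpep, all 3 of Mme and the downstream one of Ace lie within the span, and the one of Ace shown here reaches into it. Each line runs 5′ to 3′ on the gene's strand over the 100 bases before the start, and capitals mark the TATA motif TATAAA or its reverse complement TTTATA. The windows lie at chr1:133350574-133350673 (plus strand, Ren1), chr8:124569707-124569806 (minus, Agt), chr11:105967848-105967947 (plus, Ace, the upstream of 2 entries), chr3:129332750-129332849 (minus, Enpep) and chr17:17624490-17624589 (minus, Lnpep).
Ren1: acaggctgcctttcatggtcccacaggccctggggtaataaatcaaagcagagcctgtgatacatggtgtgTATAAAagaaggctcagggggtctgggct
Agt: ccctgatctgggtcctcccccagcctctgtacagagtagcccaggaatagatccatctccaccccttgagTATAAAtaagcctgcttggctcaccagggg
Ace: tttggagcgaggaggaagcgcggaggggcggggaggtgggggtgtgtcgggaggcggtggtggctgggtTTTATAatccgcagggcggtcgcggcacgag
Enpep: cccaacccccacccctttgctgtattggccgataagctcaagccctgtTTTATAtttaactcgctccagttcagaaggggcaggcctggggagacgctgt
Lnpep: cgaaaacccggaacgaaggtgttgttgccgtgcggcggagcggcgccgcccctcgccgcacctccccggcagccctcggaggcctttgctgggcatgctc

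Ren1 and Agt hold the motif on the gene's strand, and Ace and Enpep on the opposite strand. In all, 4 of the 11 member windows hold it, against 5.56% of the 32851 windows of the same length in the table. The motif was not found in the 100 bases of Lnpep, Atp6ap2, Mas1, the other Ace entry or the 3 Mme entries. Ren1 and Agt have 0 CG pairs there, Enpep 3, Ace 11 and Lnpep 13. A match is a description of the letters only.

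Ren1, the gene for renin, gave 753, 659 and 279.8 normalised counts in UIRI against 422, 569.7 and 838 in UIRI + BA. The lowest library was in the UIRI group and the highest in the UIRI + BA group, and the groups overlapped widely. Its mean was 564 ± 251 (SD, n = 3) in UIRI against 609.9 ± 211 (SD, n = 3) in UIRI + BA, from 337 to 803 reads per library. The log2 fold change with BA was 0.18 (standard error 0.36, 95% interval -0.63 to 0.99; limma, adjusted p = 0.870). It turned to -0.26 without UIRI replicate 3 and to -0.079 without UIRI + BA replicate 3. Within the groups, Ren1 had a pooled SD of 0.65 on the log2 scale, and 99.7% of genes with a mean of at least 100 had a smaller one. In GENCODE release M21 (build GRCm38), tied to the table by symbol only, Ren1 lies at chr1:133350510-133360325 on the plus strand, with 2 transcripts.

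Atp6ap2 encodes the (pro)renin receptor, which is also an accessory subunit of the vacuolar proton pump. Its normalised counts were 3869, 3644 and 3850.5 in UIRI against 3681, 3927 and 3644 in UIRI + BA. All libraries lay close together, and the lowest of each group were alike. The mean was 3788 ± 125 (SD, n = 3) in UIRI against 3750.3 ± 154 (SD, n = 3) in UIRI + BA. The log2 fold change was -0.015 (95% interval -0.17 to 0.15), and 8.07% of genes with a mean of at least 100 had a smaller SD within groups. The gene lies at chrX:12587801-12617049.

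Agt encodes angiotensinogen, the precursor of all angiotensins. It gave 821, 840.2 and 618 normalised counts in UIRI against 698, 952 and 1159 in UIRI + BA. UIRI replicate 3 was again the lowest library and UIRI + BA replicate 3 the highest, while UIRI + BA replicate 1 lay below 2 of the UIRI libraries. Group means were 759.8 ± 123 (SD, n = 3) in UIRI against 936 ± 231 (SD, n = 3) in UIRI + BA. The log2 fold change was 0.28 (standard error 0.18, 95% interval -0.13 to 0.70; limma, adjusted p = 0.603), with an exact permutation p of 0.4. It was 0.11 without UIRI + BA replicate 3 and 0.14 without UIRI replicate 3, whereas leaving out UIRI + BA replicate 1 gave 0.48. Agt lies at chr8:124556534-124569706 on the minus strand, with 1 annotated transcript.

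**Figure D1:**
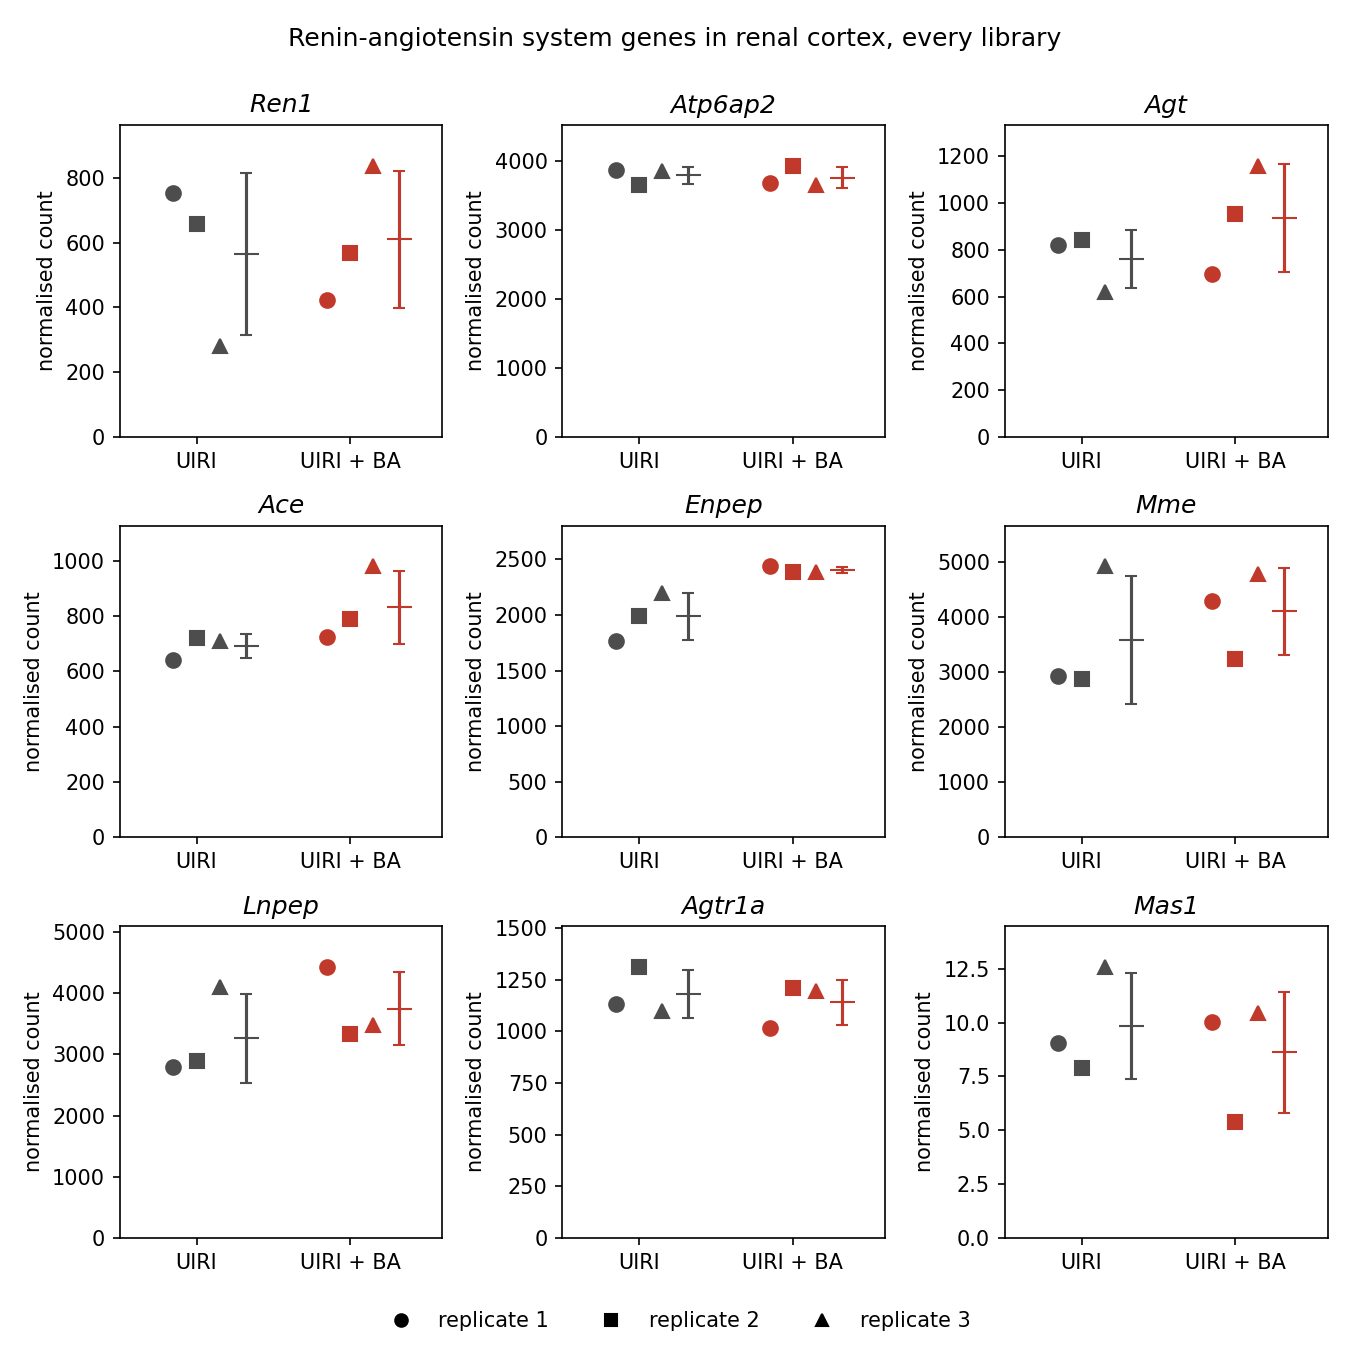
Normalised counts of each gene in every library (y axis from 0), with UIRI in grey and UIRI + BA in red; symbols mark the replicate number and bars the group mean ± SD (n = 3). The groups are separate in Ace and Enpep and overlap in the other 7 genes.

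Ace encodes angiotensin-converting enzyme, a membrane-bound peptidase of endothelium and brush border. In UIRI it read 641, 722 and 709.7, and in UIRI + BA 724, 790.5 and 979.8. Every UIRI + BA library lay above every UIRI library, but the gap between the nearest ones was only that from 722 to 724. The mean was 691 ± 43.6 (SD, n = 3) in UIRI against 831 ± 133 (SD, n = 3) in UIRI + BA, and the log2 fold change was 0.26 (standard error 0.12, 95% interval -0.011 to 0.52; limma, adjusted p = 0.498). The exact permutation p was 0.1, the smallest that 3 against 3 libraries allow. Without UIRI + BA replicate 3 the log2 fold change was 0.13, and without UIRI + BA replicate 1 it was 0.35. With quantile normalization or upper quartile scaling the groups overlapped. Ace lies at chr11:105967945-105989964 and overlaps Gm11651 on the other strand; the kit kept strand, but the strand setting used in counting is not given in the sources used here, so reads of the pair may be mixed.

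Enpep encodes aminopeptidase A, which trims angiotensin II to angiotensin III. Its normalised counts were 1769.6, 1993 and 2198 in UIRI against 2438, 2388 and 2383 in UIRI + BA. All UIRI + BA libraries were above all UIRI libraries and close to each other, with a mean of 2403 ± 30.3 (SD, n = 3) against 1987 ± 214 (SD, n = 3) in UIRI. The log2 fold change was 0.28 (standard error 0.089, 95% interval 0.079 to 0.48), a fold of 1.21. limma gave an unadjusted p of 0.0115 and an adjusted p of 0.374, and the exact permutation p was 0.1. Without UIRI replicate 3 the log2 fold change was 0.36 with an adjusted p of 0.0339 from limma; over all fits without 1 library the adjusted p ran from 0.0339 to 1.000. Without UIRI replicate 1, 0 members had an unadjusted p below 0.05, Enpep included, against 4.21% of all genes. The gene lies at chr3:129269175-129332720 on the minus strand, and the processed pseudogene Gm42628 overlaps it on the plus strand.

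Mme encodes neprilysin, a brush border endopeptidase that turns angiotensin I into shorter peptides. The UIRI libraries gave 2941, 2885 and 4932 normalised counts, and the UIRI + BA libraries 4304, 3240.5 and 4789.6. The highest library was UIRI replicate 3, so the groups overlapped, although the other 2 UIRI libraries were the lowest of all. Means were 3586 ± 1166 (SD, n = 3) and 4111 ± 792 (SD, n = 3), with a log2 fold change of 0.22 (standard error 0.21; limma, adjusted p = 0.709). Leaving out UIRI replicate 3 gave 0.48, and leaving out UIRI + BA replicate 2 gave 0.39. It was only 0.091 without UIRI replicate 2, and leaving out either UIRI replicate 1 or UIRI + BA replicate 3 gave 0.11. Mme lies at chr3:63241537-63386030, with 8 transcripts.

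Lnpep encodes insulin-regulated aminopeptidase, the binding site of angiotensin IV. It read 2790.4, 2897 and 4105 in UIRI against 4433, 3335 and 3476 in UIRI + BA. UIRI replicates 1 and 2 were the lowest libraries, as in Mme, while UIRI replicate 3 lay among the UIRI + BA libraries. The mean was 3264 ± 730.1 (SD, n = 3) in UIRI against 3748 ± 598 (SD, n = 3) in UIRI + BA, and the log2 fold change was 0.21 (standard error 0.16; limma, adjusted p = 0.647). It was 0.39 without UIRI replicate 3, but 0.083 without UIRI + BA replicate 1, 0.11 without UIRI replicate 1 and 0.14 without UIRI replicate 2. Lnpep lies at chr17:17521410-17625050 on the minus strand, and the unclassified transcript Gm49784 overlaps it on the same strand.

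Agtr1a encodes the type 1a angiotensin II receptor, the main mediator of the peptide's pressor action in rodents. Its normalised counts were 1131, 1314 and 1099 in UIRI against 1016, 1209 and 1198 in UIRI + BA. The highest library was in the UIRI group and the lowest in the UIRI + BA group, and the others were interleaved. With means of 1181 ± 116 (SD, n = 3) and 1141 ± 109 (SD, n = 3), the log2 fold change was -0.050 (95% interval -0.28 to 0.18). It turned positive without UIRI replicate 2 (0.029) or UIRI + BA replicate 1 (0.032). Agtr1a lies at chr13:30336441-30382867, where Gm48161 sits in an intron on the same strand, and its close paralog Agtr1b has no row in the table.

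Mas1 encodes the Mas receptor, which responds to a shortened angiotensin peptide. It was read only 5 to 23 times per library, which gave 9.06, 7.87 and 12.6 normalised counts in UIRI against 10.02, 5.38 and 10.4 in UIRI + BA. The libraries of the groups were interleaved, and at these counts a difference was not detectable unless large: the 95% interval of the log2 fold change ran from -1.05 to 0.66 around -0.20. Mas1 lies at chr17:12841079-12868143 on the minus strand and overlaps the antisense transcript Airn and the microRNA gene Gm24085, so its few reads may not all be its own.

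Levels of different genes were compared as normalised counts per kb of annotated exon. The mean over the 6 libraries was 1440 for Atp6ap2, 466 for Enpep, 448 for Agt, 417 for Agtr1a, 354 for Ren1, 333 for Mme, 248 for Lnpep, 144 for Ace and 3.52 for Mas1. Atp6ap2 stood above all other members in 6 of 6 libraries, and Mas1 below all of them. Between Enpep and Mme the order was not fixed: each gene exceeded the next in 3 or 4 of 6 libraries only, and their ranges overlapped. Mme exceeded Lnpep in 6 of 6 libraries and Lnpep exceeded Ace in 6 of 6. Divided by the longest annotated transcript instead, Mme went from 333 to 479 per kb, above Agt at 448, and Agtr1a from 417 to 528, above Enpep at 525, so the middle of the order also depends on which exons are counted.

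**Figure D2:**
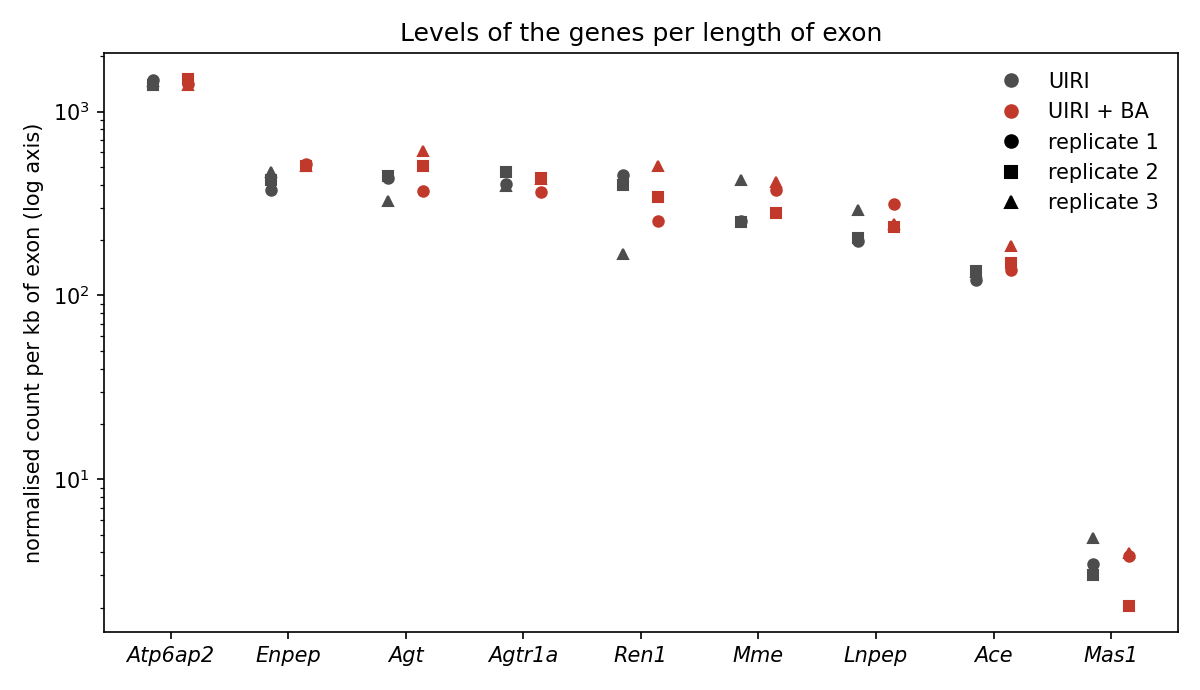
Level of each gene in every library as normalised counts per kb of annotated exon (logarithmic y axis), ordered by the mean over 6 libraries, with UIRI in grey and UIRI + BA in red. Atp6ap2 lies near 1440 and Mas1 near 3.52, and the ranges of Enpep, Agt, Agtr1a, Ren1 and Mme overlap.

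After subtracting each gene's mean log2 value over the 6 libraries, Ren1 stood at -0.98 and Agt at -0.43 in UIRI replicate 3, and at -0.38 and -0.25 in UIRI + BA replicate 1. In UIRI + BA replicate 3 they stood at 0.60 and 0.48. In UIRI replicate 3 and UIRI + BA replicate 1, Mme stood at 0.39 and 0.20 and Lnpep at 0.25 and 0.36. Among the other peptidases, Enpep stood at 0.011 and 0.16 there and Ace at -0.088 and -0.059. Thus Mme and Lnpep were above their mean in a pair of libraries, 1 of each group, in which Ren1 and Agt were below theirs. The opposite course did not hold throughout: in UIRI + BA replicate 3, where Ren1 and Agt were highest, Mme stood at 0.35 and Lnpep at 0.0080.

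**Figure D3:**
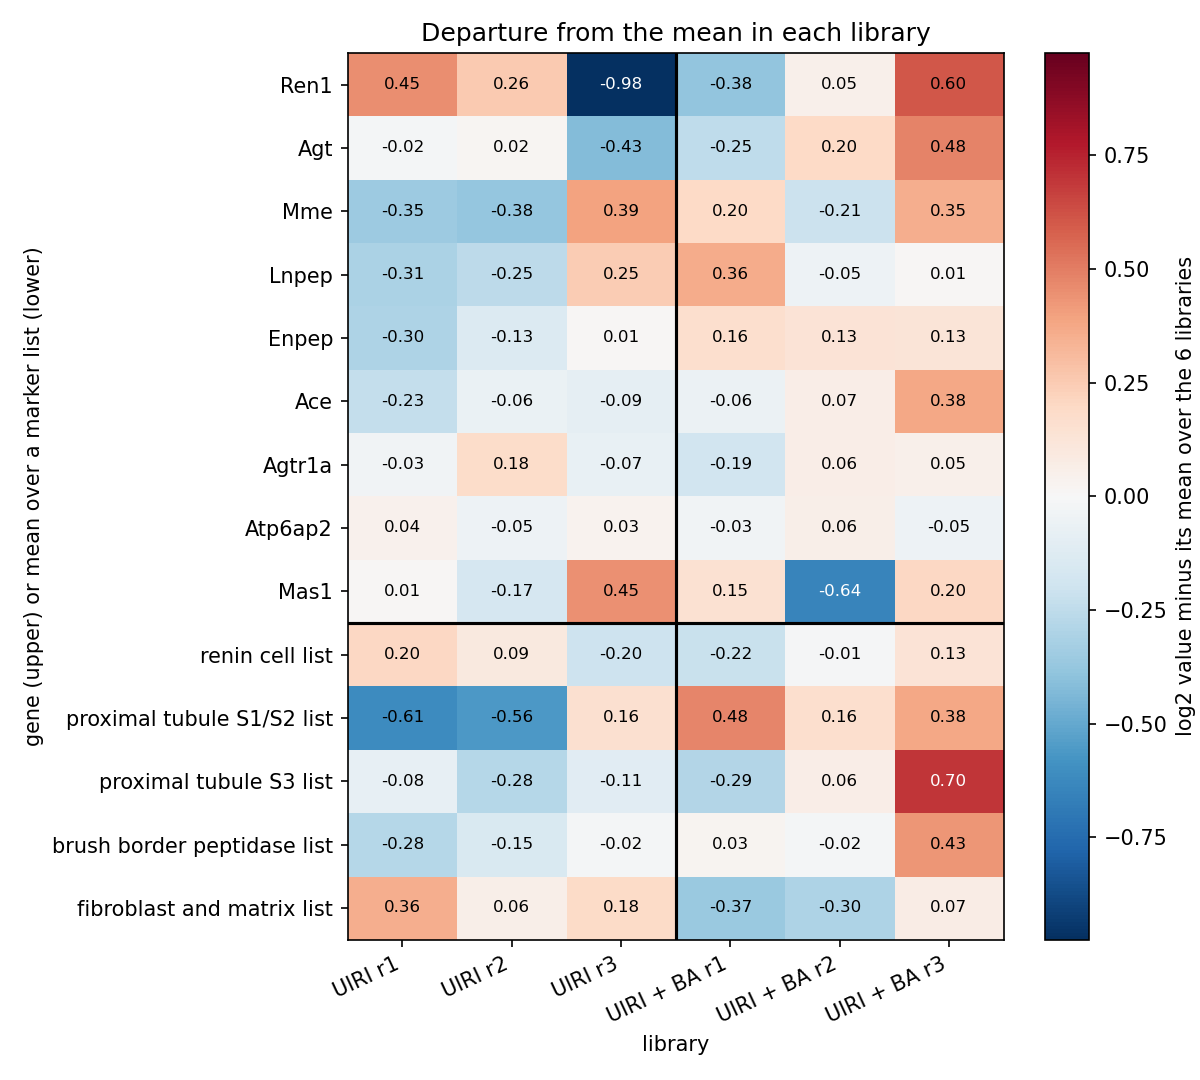
Log2 value minus its mean over the 6 libraries, for each gene (upper rows) and for the mean of 5 marker lists (lower rows), by library (columns; r is the replicate number, and the vertical line parts the groups). UIRI replicate 3 is blue in Ren1 (-0.98) and Agt (-0.43) and red in Mme (0.39) and Lnpep (0.25).

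Genes with the most similar profile were found among the other 12647 genes with a mean of at least 100, as the root mean square difference of these centred log2 values over 6 libraries. For Ren1 they were Naip1 (0.26), Defb36 (0.28) and Rcl1 (0.29), all well apart from it. For Agt they were Fbxo36 (0.067), Rspo3 (0.11) and Slc5a10 (0.11). Fbxo36, the nearest, read 140.5, 128 and 107 in UIRI against 123, 156 and 193 in UIRI + BA, with its lowest and highest libraries the same as those of Agt. Those of Ace were Lap3 (0.037), Atp11a (0.042) and Acad10 (0.043), and those of Enpep were Snhg11 (0.027), Dnajb9 (0.034) and Fam83g (0.038). Mme had Gnai1 (0.070) and Ston1 (0.083) among its nearest, and Agtr1a had Eif2b4 (0.028), Cenpv (0.031) and Sat2 (0.032). Profiles were not searched for Lnpep, Atp6ap2 and Mas1.

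Proximal tubule markers were looked at because several of the peptidases are made there. Of 10 markers of segments S1 and S2, 10 had a higher mean with BA and 9 had an unadjusted p below 0.05, against 10.3% of all genes (5.67% higher with BA), but 0 had an adjusted p below 0.05. Their median log2 fold change was 0.71. Their summed normalised counts were 20246, 23165 and 32038 in UIRI against 39213, 33637 and 38311 in UIRI + BA, led by the phosphate transporter gene Slc34a1, and none was at 0. UIRI replicate 3 thus lay nearest to the UIRI + BA libraries in these markers, as it did in Mme and Lnpep. Of 6 markers of segment S3, 4 had a higher mean with BA, 2 of them at an unadjusted p below 0.05 and 0 at an adjusted p below 0.05. Their sums were 42881, 47184 and 45494 in UIRI against 42099, 58118 and 98216 in UIRI + BA, led by Kap, the androgen-regulated kidney protein gene. UIRI + BA replicate 3, the highest library of Ren1, Agt and Ace, also had the highest S3 sum, mostly from Kap (76195). The S3 markers Slc22a7 and Cyp7b1 were instead highest in UIRI replicate 1 (30.6) and UIRI replicate 3 (306). Atp11a, also an S3 marker, is listed above as a near match of Ace.

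Members were therefore also expressed relative to these lists, as the log2 value of the gene minus the mean log2 value of the list in each library. The mean log2 value of the S1 and S2 list was itself 0.68 higher with BA, so on this scale 97.4% of all genes had a lower mean with BA, as did all 9 members. Mme gave 1.53, 1.46 and 1.51 in UIRI against 0.99, 0.90 and 1.25 in UIRI + BA on this scale. Lnpep gave 1.46, 1.46 and 1.25 in UIRI against 1.04, 0.94 and 0.79 in UIRI + BA. In these genes and in Mas1, 3 of 9, all UIRI + BA libraries lay below all UIRI libraries (exact permutation p = 0.1 each, the smallest possible), against 42.3% of all genes that were separate and lower on this scale. The value of Mas1 rests on 5 to 23 reads per library. For Mme the UIRI libraries, far apart in plain counts, had an SD of 0.041 (n = 3) relative to this list and 0.41 relative to the S3 list. On the S1 and S2 scale this was the smallest UIRI SD of the 9 members, the others running from 0.12 for Lnpep to 1.20 for Ren1. Enpep, which was higher with BA in plain counts, gave 0.80, 0.92 and 0.35 in UIRI against 0.17, 0.46 and 0.24 in UIRI + BA. Its groups overlapped on this scale, with a difference of -0.40 and an exact permutation p of 0.2. Against the S3 list the groups overlapped in all 9 members, while 10.3% of all genes were separate, with differences of -0.089 for Mme, -0.10 for Lnpep and -0.034 for Enpep. These 3 members were higher with BA in plain counts by less than the S1 and S2 list was, and the part of the tubule markers in the plain differences was not tested.

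**Figure D4:**
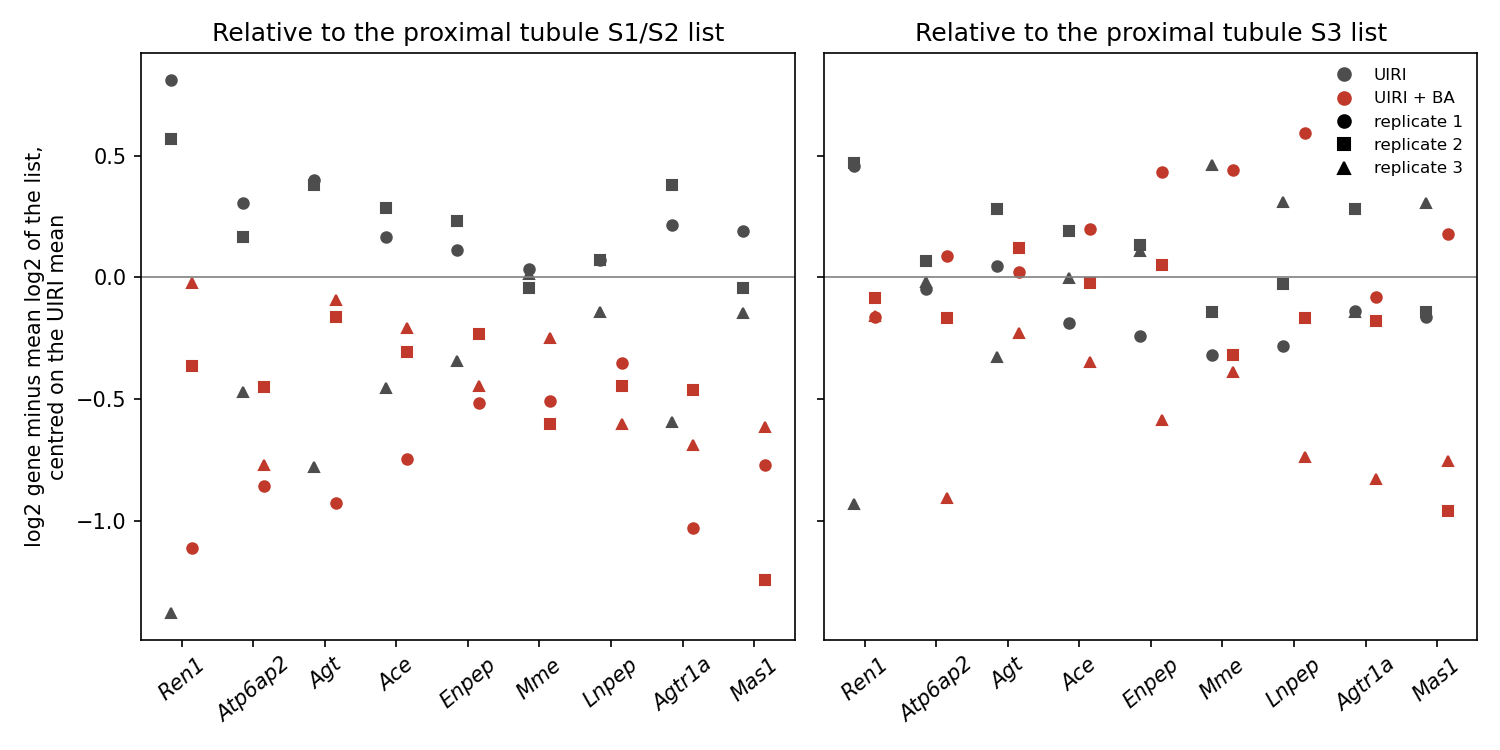
Log2 value of each gene minus the mean log2 value of the S1/S2 list (left) or the S3 list (right), drawn relative to the UIRI mean of that gene (zero line); UIRI is grey, UIRI + BA is red and symbols mark the replicate number. On the left Mme, Lnpep and Mas1 have all UIRI + BA libraries below all UIRI libraries, as do 42.3% of all genes, and on the right every gene overlaps.

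Markers of the renin-producing cells were Akr1b7, Gja5, Adrb1 and Rgs5 beside Ren1 itself. With BA, 3 of these 5 genes were higher and 2 were lower, none at an unadjusted p below 0.05. Their sums were 3600.4, 3857 and 3115 in UIRI against 3464, 4046 and 3923 in UIRI + BA, led by Rgs5. Without Ren1 the sums were 2847, 3198 and 2835 in UIRI against 3042, 3476 and 3086 in UIRI + BA, mostly from Rgs5, which is also on the vascular and mesangial list. Of the other 3, Akr1b7 and Gja5 had a lower mean with BA and Adrb1 a higher one. Akr1b7 read 157, 159.7 and 102 in UIRI against 83.9, 119.5 and 109.6 in UIRI + BA, Gja5 159, 119 and 168 against 88.9, 123 and 146, and Adrb1 45.3, 40.5 and 43.8 against 56.4, 37.7 and 44.9. The macula densa list (Nos1, Ptgs2 and Slc12a1, led by Slc12a1) had 0 of 3 genes at an unadjusted p below 0.05.

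Other sources of renin-angiotensin transcripts were looked for with marker lists. Of 7 adrenal genes only Star was in the table, at 142 to 184 normalised counts, and of 5 mast cell genes only Ms4a2, at 15.7 to 37.7. Liver genes, which mark the main source of circulating angiotensinogen, were led by Fga and summed to 1079.7, 1127 and 1192 in UIRI against 1221, 1346 and 1328 in UIRI + BA. With BA, 4 were higher and 2 lower, namely Alb (log2 fold change -0.068) and Apoa1 (-0.42). Of the 6, 1 (Fga) had an unadjusted p below 0.05, against 10.3% of all genes. Urothelial genes, led by Krt15, summed to 169.9, 143 and 583 in UIRI against 37.6, 49.5 and 363 in UIRI + BA, with Upk2 at 0 in UIRI + BA replicates 1 and 2 and Upk3a at 0 in replicate 2. Their level was highest in UIRI replicate 3 and UIRI + BA replicate 3, the lowest and the highest library of Ren1 and Agt. Fibroblast and matrix genes were lower with BA in 7 of 7, with 5 at an unadjusted p below 0.05. Over all 19176 genes, 9793 were lower, 884 of them at that threshold. The fibroblast and matrix genes were led by Col3a1 and summed to 125878, 107286 and 110384 in UIRI against 78125, 83409 and 99472 in UIRI + BA. Of 6 brush border peptidase genes, led by Mep1a, 2 were higher at an unadjusted p below 0.05, against 5.67% of all genes. Podocyte markers, led by Podxl, had 1 of 7 lower at that threshold, and vascular and mesangial markers (led by Pdgfrb) 2 of 9 lower. Leukocyte markers (Ptprc) had 1 of 7 lower, and injured tubule markers (Spp1) 3 of 7 higher and 2 lower. Over all 19176 genes, 5.67% were higher and 884 genes were lower at that threshold. Whatever the p, 6 of 7 podocyte, 8 of 9 vascular and mesangial and 6 of 7 leukocyte markers had a log2 fold change below 0. Endothelial (Emcn), thick limb (Umod) and collecting duct (Atp6v1g3) markers had 0 of 7, 0 of 5 and 0 of 6 at that threshold. By direction, 6 of 7 endothelial and 1 of 5 thick limb markers were lower with BA, and 6 of 6 collecting duct markers were higher. None of these lists had a gene at 0. The part of these cell types in the members' values was not tested.

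Beyond the 9 members, 7 of 10 other angiotensin peptidase genes were in the table, 2 higher and 5 lower with BA, and 0 had an unadjusted p below 0.05. Cathepsin A (Ctsa), the most abundant gene of this list, had a log2 fold change of -0.038. Of 4 other receptor genes only Agtrap, whose product binds the type 1 receptor, was in the table, at 1847 to 2014 normalised counts.

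In the kallikrein-kinin list, 4 of 5 genes were in the table and 1, against 10.3% of all genes, had an unadjusted p below 0.05. This was Klk1, tissue kallikrein, made by the connecting tubule, which read 6911, 6878 and 7909 in UIRI against 10219, 11450.0 and 8549 in UIRI + BA. All UIRI + BA libraries were higher than all UIRI libraries, and the log2 fold change was 0.47 (standard error 0.11; limma, adjusted p = 0.263). DESeq2 called Klk1, with an adjusted p of 0.0174, and so did limma without UIRI replicate 3 (0.0339). In the fits without any other single library limma did not call it, and over all alternatives the adjusted p ran from 0.0174 to 1.000. All 9 genes of the aldosterone response list were in the table and had a log2 fold change above 0, against 48.9% of all genes. Their median was 0.18, beside -0.0053 over all genes, but 0 had an unadjusted p below 0.05. The most abundant of them, the thiazide-sensitive cotransporter gene Slc12a3, read 2793, 3561 and 4611 in UIRI against 6474, 4894 and 3072 in UIRI + BA, and the groups overlapped.

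**Figure D5:**
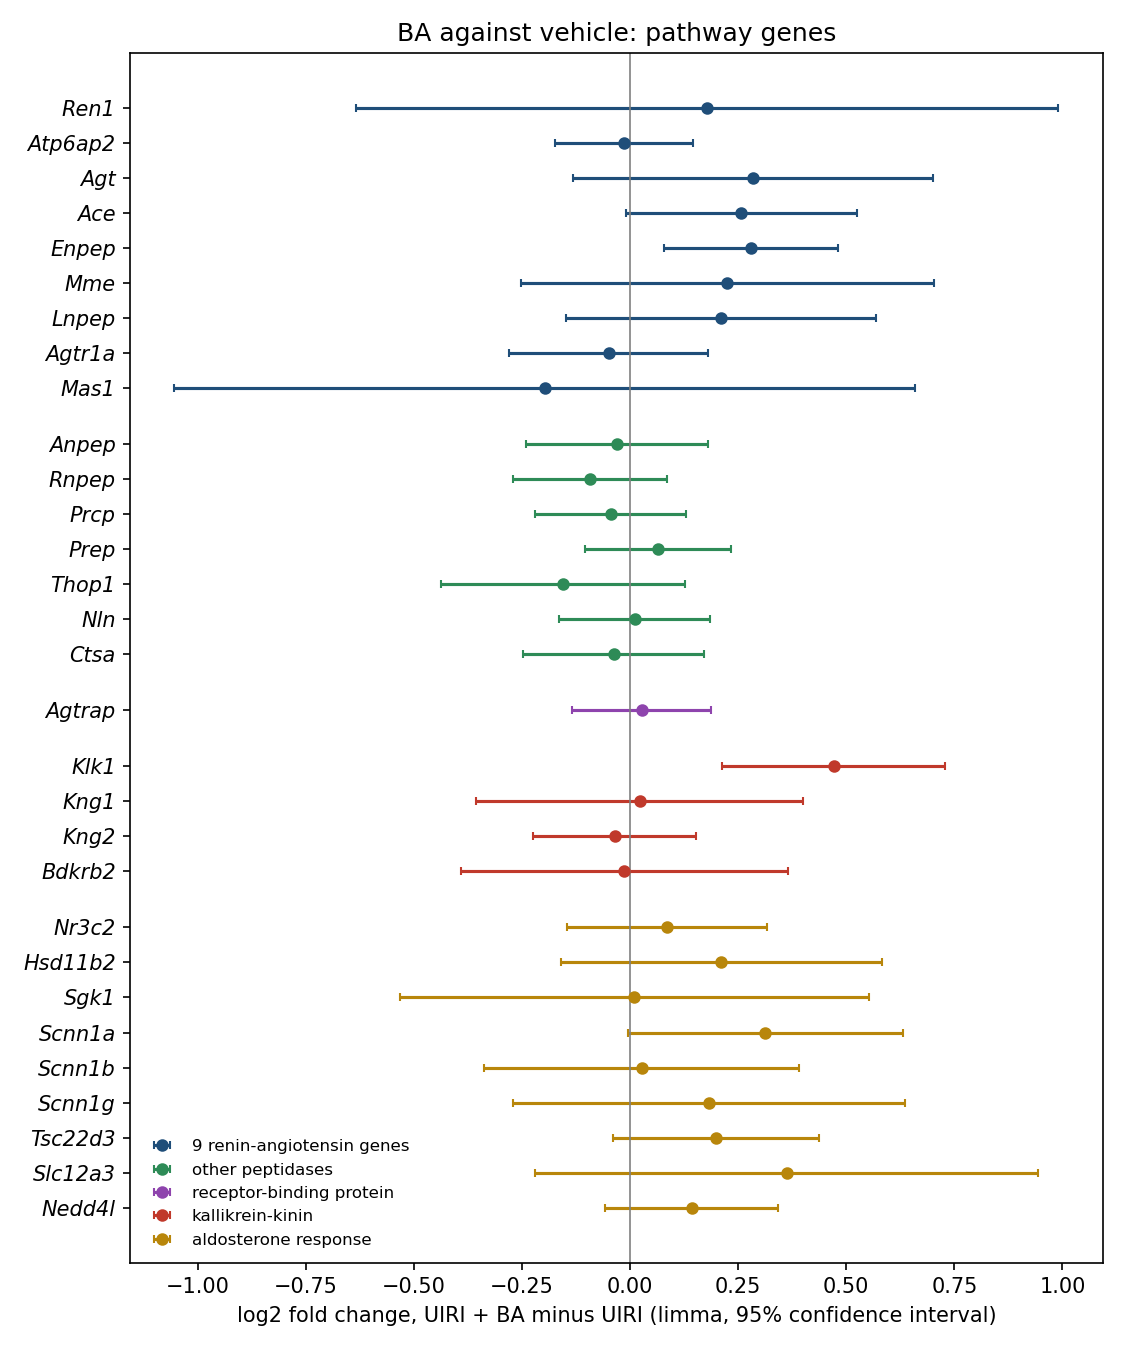
Log2 fold change of UIRI + BA minus UIRI for the 9 genes and for other genes of the pathway and its neighbours (points), with 95% intervals from limma (bars); colours mark the lists. Among the 9, only the interval of Enpep (0.079 to 0.48) lies wholly above 0, and outside them that of Klk1.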

How the data were processed

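Per the labels and the methods, poly(A) RNA of renal cortex was sequenced and the authors aligned reads with HISAT2, counted them with FeatureCounts and ran DESeq2. The genome build and the strand setting are not given in the sources used here. The deposited signal per gene and library holds each count after division by a size factor; 100% of values gave whole reads within 0.01, and genes with fewer than 10 reads in all had no row. Deposited fold changes, p-values and enrichment tables were not used.

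log2(value + 1) was tested with limma 3.58.1 (trend, no covariate, no filter, Benjamini-Hochberg over 19176 rows). DESeq2 1.42.0 and edgeR 4.0.16 used recovered reads. All were tested on simulated data. Single values had exact two-sided permutation tests (scipy 1.17.1).

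The members and gene lists were chosen with earlier results of these data known. Named were all members, genes of the neighbouring lists with an unadjusted p below 0.05, the most abundant gene of each list, all renin cell markers, genes at 0 and the 3 nearest profiles, except items that are not reported here, which the list counts also leave out. Precision is limited by 3 mice in each group and, for Mas1, by its reads.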

Additional observations from a re-analysis of the deposited data

How the results depend on the processing

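Of the 9 members, Agt, Ace, Mme, Enpep and Lnpep kept their direction with DESeq2, edgeR, upper quartile scaling, quantile normalization, a pseudocount of 0.1, a minimum of 1 in all libraries and any 1 library left out. Without 1 library, the log2 fold change ran from -0.26 to 0.45 for Ren1, from -0.099 to 0.032 for Agtr1a, from -0.048 to 0.0057 for Atp6ap2 and from -0.35 to 0.074 for Mas1. The cause was not tested.

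Genes at an adjusted p below 0.05 numbered 0 with limma and 213 with DESeq2, and from 0 to 962 without 1 library. In these fits, members at that threshold ran from 0 to 1, against 0% to 5.02% of all genes. Members at an unadjusted p below 0.05 ran from 0 to 3, against 4.21% to 25.2%; the 2 fits with 3 members had 25.2% (no UIRI replicate 3) and 6.62% (no UIRI + BA replicate 1). Members whose groups did not overlap ran from 2 to 4, against 18.2% to 45.4% of all genes, the latter without UIRI replicate 3. The last count was 1 with quantile normalization, against 13.8%, and 1 with upper quartile scaling, against 14.2%. Relative to the S3 list in place of the S1 and S2 list, 0 members had groups that did not overlap.

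Whether replicate numbers pair the libraries was not settled. Deviations of same-numbered libraries correlated at -0.24, 0.30 and 0.15 over 17249 genes, and 3 of 6 libraries correlated best with their own number. With the replicate number as a block, 6 genes passed the adjusted threshold, with 2 members, Enpep and Ace, at an unadjusted p below 0.05, against 11% of all genes in that fit.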
